A study of Homo sapiens with 6 samples.

Results

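The mitochondrial ribosomal proteins are described here as a family of 75 genes among the 19775 genes measured in colorectal cancer cells labelled as overexpressing CPEB3 and in negative controls. Members were taken by symbol alone: MRPL (large subunit) or MRPS (small subunit) followed by a number, with pseudogenes left out. Each gene had to have a probe set annotated to it alone, and where there were several, the brightest of them on average across the 6 arrays stood for the gene. Of the 77 protein-coding genes with such symbols in the RefSeq gene table, 75 qualified, 48 named MRPL and 27 named MRPS. MRPS24 and MRPL53 had only probe sets shared with another gene and were left out, as were the pseudogene MRPL45P2 and the noncoding antisense transcript MRPL20-AS1. MRPS36, a protein since reassigned to a dehydrogenase complex, was not analysed here.

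The cells were SW480, an established human line from a colorectal adenocarcinoma. The 3 arrays labelled CPEB3 held, per the labels, total RNA of SW480 cells transfected to overexpress CPEB3, a protein that binds cytoplasmic polyadenylation elements of mRNAs and controls their translation. The 3 arrays labelled NC held, per the labels, RNA of SW480 cells transfected with a negative control. All were kept in DMEM with fetal calf serum and antibiotics, and the labels name neither the vector, nor the time after transfection, nor whether each group was 1 stable line. Titles number the samples as biological replicates without naming cultures, so p-values measure only the spread between these samples.

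CPEB3 mRNA did not follow the labels. Its brightest probe set read 5.40, 5.35 and 5.37 on the log2 intensity scale in the arrays labelled CPEB3, against 5.38, 5.25 and 5.34 in the arrays labelled NC, and the groups overlapped there. Its other 3 probe sets were dimmer than the median probe set and read lower where overexpression was labelled, with no overlap between the groups. Their differences were -1.44, -0.35 and -0.25 (adjusted p = 7.8e-05, 0.00877 and 0.0473 over all probe sets, limma). These arrays do not show why. Whether the labels are exchanged between the groups, the introduced CPEB3 sequence lies outside what the probe sets detect, or another reason applies was not tested. Every direction given for the members therefore rests on the labels. Array medians lay between 14.8 and 15.2 intensity units, and correlations across probe sets were 0.997 to 0.998 between arrays of 1 group and 0.991 to 0.992 between arrays of different groups.

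Mitochondria carry their own ribosomes, which make the few membrane-embedded subunits of the respiratory chain and of ATP synthase that mitochondrial DNA (mtDNA) encodes. Their RNA comes from mtDNA, but every protein of the mitoribosome is encoded in the nucleus, made on cytosolic ribosomes and imported. Some of these proteins have a counterpart in bacterial ribosomes, and the others are found only in mitochondrial ribosomes, which hold more protein and less RNA than bacterial ones. Loss of single members in people, MRPS16 and MRPS22 among them, causes combined oxidative phosphorylation deficiencies.

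Most of the family read slightly higher in the arrays labelled CPEB3. Of the 75 members, 23 (30.7%) rose and 2 (2.67%) fell at a Benjamini-Hochberg adjusted p under 0.05 (limma, two-sided, adjusted over all 19775 genes), while 10.9% of all genes rose and 12.5% fell. The other 50 members did not pass. An unadjusted p under 0.05 was reached by 32 of the 75 members and by 6976 of all 19775 genes. The median difference, arrays labelled CPEB3 minus arrays labelled NC, was 0.12 on the log2 scale, equal to 8.33% more signal, and its quartiles were 0.02 and 0.23. The same median over all genes was 0.02. Differences were positive for 59 members (78.7%), against 55.0% of all genes. Since the RNA was measured in bulk, a shift in how many cells carry a transcript and a change of RNA per cell cannot be told apart.

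The changes were small and narrow in range. Differences ran from -0.26 to 0.36, and the largest fold was 1.28. No member reached 2-fold, which 191 of all genes did. Among called genes the median absolute difference was 0.27 in the family and 0.34 over all genes. The smallest called rise was 0.20, for MRPS26, and the largest difference that did not pass was 0.30, for MRPL15, whose 3 arrays labelled CPEB3 lay farther apart. In the arrays labelled CPEB3 all values of a gene exceeded all NC values for 44 members (58.7%, against 19.9% of all genes), and they lay below all NC values for 5 (6.67%, against 19.1% of all genes). The remaining 26 members overlapped.

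**Figure D1:**
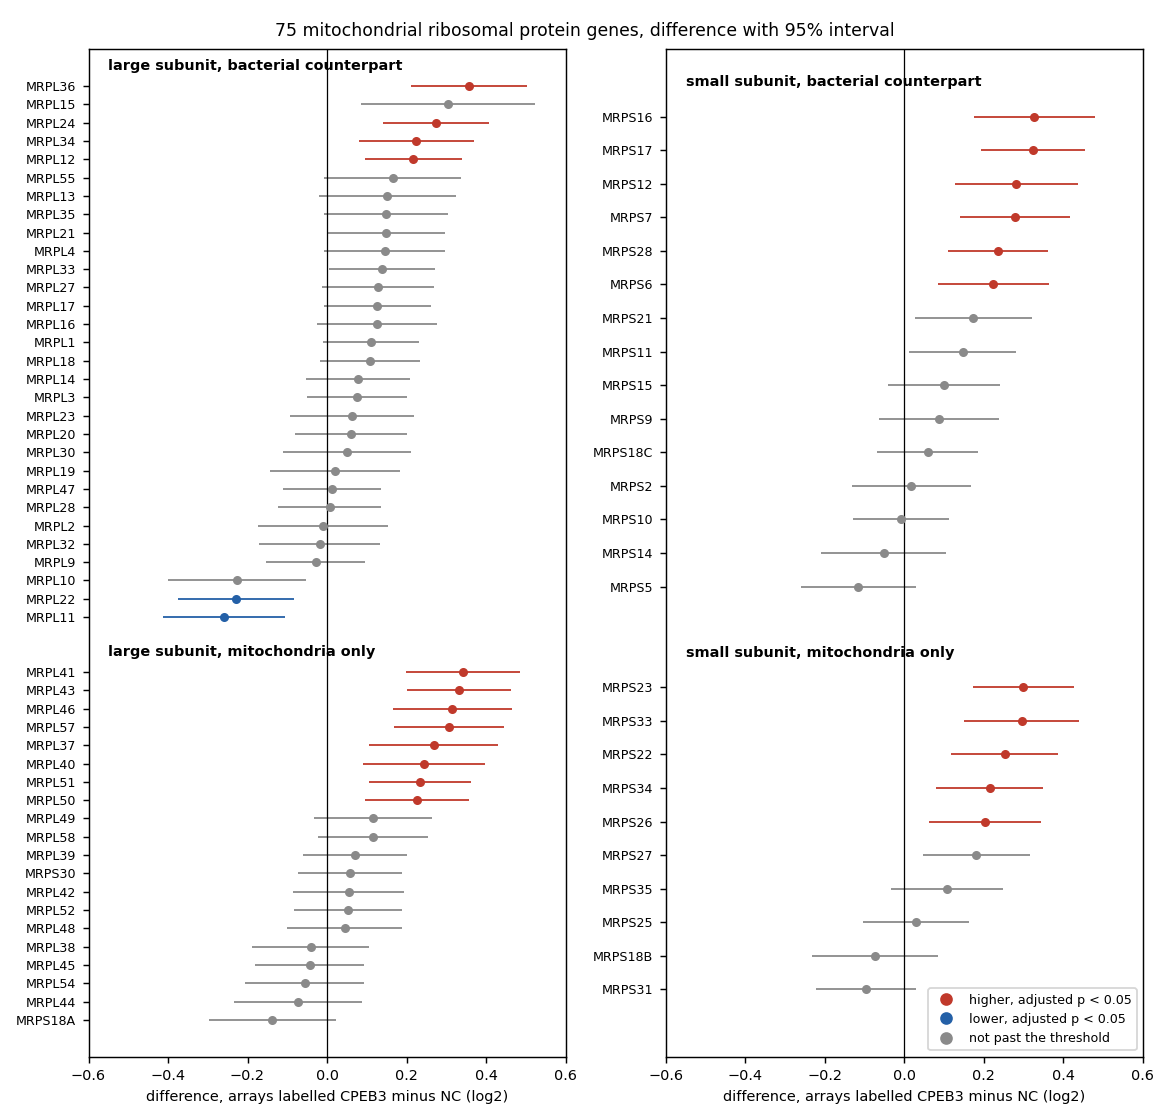
Difference in log2 intensity (x axis, arrays labelled CPEB3 minus arrays labelled NC, 3 arrays each) for each of the 75 genes (y axis). The 2 panels are the subunits, each with 2 blocks by whether bacteria have a counterpart. Points are limma estimates and lines their 95% intervals; the 23 red genes rose, the 2 blue genes fell and the 50 grey genes did not pass, and called rises lie between 0.20 and 0.36.

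Members had mean levels between 6.02 and 10.61, all above the median probe set at 3.90. When genes dimmer than the median probe set were left out, 26 members rose and 3 fell, with 18.8% of the remaining 12932 genes higher and 21.9% lower. The arrays' spike-in controls, RNAs added in fixed amount, read 0.18 lower on the log2 scale in the arrays labelled CPEB3. That is a mean over 18 probe sets, whose single differences ran from -0.33 to -0.04. These controls are not a measure of the amount of RNA in the cells, and centring on them is given only as another scaling. With each array centred on the controls the median of all genes moved to 0.20 and that of the members to 0.29. By limma 54 members rose, and 7766 of all genes (39.3%) rose, while 5.25% fell.

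**Figure D2:**
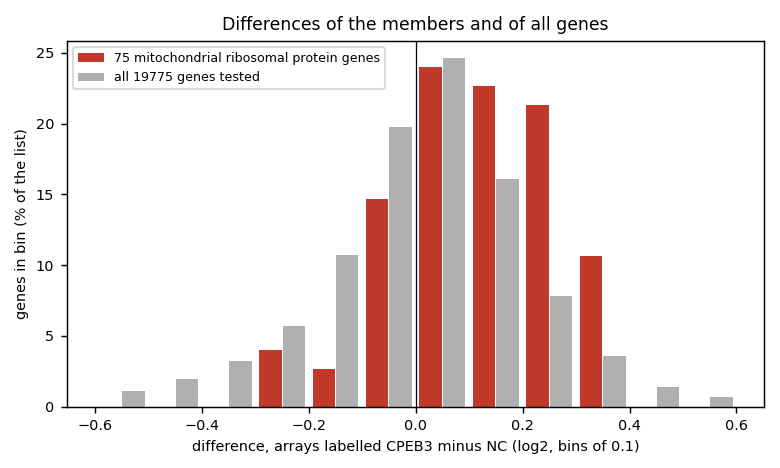
Share of genes (y axis, % of the list) by difference in log2 intensity (x axis, arrays labelled CPEB3 minus arrays labelled NC, bins of 0.1) for the 75 members (red) and all 19775 genes tested (grey). The members peak to the right of 0 with a median of 0.12, against 0.02 for all genes, and all lie within the plotted range, outside which 686 of all genes fall.

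Promoters of nuclear genes for mitochondrial proteins are known for sites of the activators NRF1, GABP (an ETS family factor) and YY1. The RefSeq promoter windows (GRCh38.p14, from 250 bases before to 50 after the start) matched 67 of the 75 members. They were searched on both strands for GCGCANGCG (NRF1), CCGGAAG (ETS and GABP), AAGATGGCG (YY1), GGGCGG (SP1), CCAAT and CACGTG (E-box), none of which contains another, although matches may overlap in part. CCGGAAG was present in 41.8% of the members' windows and in 14.4% of the 15384 windows of tested genes. AAGATGGCG was present in 17.9% and 2.76%, and GCGCANGCG in 19.4% and 11.2%. GGGCGG (59.7% and 58.9%), CCAAT (29.9% and 36.1%) and CACGTG (8.96% and 8.90%) were the other shares, members' windows first. Median GC content was 60.3% in the members' windows and 63% in all. Among the 22 members that rose and had a window, 45.5% held CCGGAAG, against 40% of the 45 other members. For AAGATGGCG these shares were 13.6% and 20%, and for GCGCANGCG 18.2% and 20%. A match describes letters only and is not a site shown to be used.

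The windows of the 4 members with the largest rises and of both members that fell are printed below 5′ to 3′ on the gene's strand, as those of the members whose values the results turn on. Capitals mark matches to the NRF1, ETS, YY1 and CCAAT letters on either strand. MRPL36 lies at chr5:1799788-1800087 (minus strand), MRPL41 at chr9:137551629-137551928 (plus), MRPL43 at chr10:100987448-100987747 (minus), MRPS16 at chr10:73252595-73252894 (minus), MRPL11 at chr11:66438799-66439098 (minus) and MRPL22 at chr5:154940823-154941122 (plus).
MRPL36: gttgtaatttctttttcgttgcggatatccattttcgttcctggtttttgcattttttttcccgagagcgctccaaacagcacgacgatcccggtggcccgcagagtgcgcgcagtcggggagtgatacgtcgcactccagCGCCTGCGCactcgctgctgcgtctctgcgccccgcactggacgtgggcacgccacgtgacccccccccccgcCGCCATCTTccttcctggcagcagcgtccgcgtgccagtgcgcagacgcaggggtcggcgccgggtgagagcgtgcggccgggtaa
MRPL41: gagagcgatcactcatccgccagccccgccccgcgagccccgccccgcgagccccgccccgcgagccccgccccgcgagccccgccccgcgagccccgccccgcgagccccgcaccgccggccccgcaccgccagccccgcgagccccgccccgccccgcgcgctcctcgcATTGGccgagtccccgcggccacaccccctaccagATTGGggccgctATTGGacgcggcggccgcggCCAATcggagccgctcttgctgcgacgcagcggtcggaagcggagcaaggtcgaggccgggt
MRPL43: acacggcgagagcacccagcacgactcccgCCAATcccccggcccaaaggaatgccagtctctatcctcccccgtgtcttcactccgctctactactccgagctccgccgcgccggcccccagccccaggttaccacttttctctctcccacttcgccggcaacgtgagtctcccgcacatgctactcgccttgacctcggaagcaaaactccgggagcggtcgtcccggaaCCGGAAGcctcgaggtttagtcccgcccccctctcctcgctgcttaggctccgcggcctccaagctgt
MRPS16: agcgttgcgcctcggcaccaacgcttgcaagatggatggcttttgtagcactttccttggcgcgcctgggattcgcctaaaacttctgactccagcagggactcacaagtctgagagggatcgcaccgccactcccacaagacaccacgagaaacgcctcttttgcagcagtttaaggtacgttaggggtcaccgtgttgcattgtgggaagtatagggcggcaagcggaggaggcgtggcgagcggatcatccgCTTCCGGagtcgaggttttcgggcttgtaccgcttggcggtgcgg
MRPL11: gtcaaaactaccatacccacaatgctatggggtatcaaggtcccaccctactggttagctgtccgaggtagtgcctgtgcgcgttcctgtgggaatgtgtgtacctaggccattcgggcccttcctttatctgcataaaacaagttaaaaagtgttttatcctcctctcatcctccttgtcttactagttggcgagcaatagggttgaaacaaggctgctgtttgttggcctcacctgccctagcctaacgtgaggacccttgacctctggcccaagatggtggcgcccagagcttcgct
MRPL22: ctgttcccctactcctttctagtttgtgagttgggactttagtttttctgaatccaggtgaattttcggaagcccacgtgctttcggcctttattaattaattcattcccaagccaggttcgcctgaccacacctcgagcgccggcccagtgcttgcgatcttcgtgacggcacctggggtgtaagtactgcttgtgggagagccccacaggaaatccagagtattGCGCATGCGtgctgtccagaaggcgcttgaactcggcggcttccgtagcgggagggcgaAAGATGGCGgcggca
MRPL36 and MRPL22, which moved in opposite directions, each held 1 NRF1 and 1 YY1 match. MRPL41 held 4 CCAAT matches on either strand and none of the other marked motifs, MRPL43 held 1 ETS and 1 CCAAT match, MRPS16 held 1 ETS match and MRPL11 held none.

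Large-subunit proteins with a bacterial counterpart made up 30 of the members, of which 4 rose and 2 fell (13.3% and 6.67%, against 10.9% and 12.5% of all genes), with a median difference of 0.11. The share that rose was near that of all genes. The largest rise of the family was that of MRPL36, the counterpart of bacterial L36, among the smallest ribosomal proteins. MRPL36 read 9.94, 9.88 and 9.92 in the arrays labelled CPEB3, against 9.45, 9.62 and 9.60 in the arrays labelled NC. The groups did not overlap, and NC replicate 1 was the lowest array. The difference was 0.36 (SE 0.06), or 1.28-fold, with an adjusted p of 0.00398. MRPL24, whose bacterial counterpart starts the assembly of the large subunit, read 8.51, 8.57 and 8.64 in the arrays labelled CPEB3, against 8.28, 8.32 and 8.30 in the arrays labelled NC. Again every array labelled CPEB3 exceeded every NC array, by a difference of 0.27 (SE 0.06, adjusted p = 0.00928). MRPL34 rose by 0.22 (adjusted p = 0.0327), a call lost when any array but NC replicate 3 was left out, with the most variable probe set and with median centring.

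Both falls of the family were in the same group. MRPL11, a protein of the stalk base where translation factors dock, read 7.95, 7.80 and 7.92 in the arrays labelled CPEB3, against 8.06, 8.20 and 8.19 in the arrays labelled NC. All arrays labelled CPEB3 were lower, and the difference was -0.26 (SE 0.07, adjusted p = 0.0228), or 1.20-fold lower. MRPL22, which lines the tunnel through which the new protein leaves, read 8.38, 8.40 and 8.52 in the arrays labelled CPEB3, against 8.59, 8.69 and 8.71 in the arrays labelled NC. The groups did not overlap, with a difference of -0.23 (SE 0.06, adjusted p = 0.0309). Both genes lost their call without CPEB3 replicate 2, without NC replicate 2, without NC replicate 3 and with spike-in centring. MRPL22 also lost it without CPEB3 replicate 1, with quantile normalization once more and when the most variable probe set stood for each gene.

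MRPL12, which forms the flexible stalk of the large subunit, read 8.69, 8.72 and 8.70 in the arrays labelled CPEB3, against 8.51, 8.47 and 8.48 in the arrays labelled NC. Its groups did not overlap at this probe set, and it rose by 0.22 (SE 0.05, adjusted p = 0.0184). A second, dimmer probe set differed by 0.03 with overlapping groups (adjusted p = 0.817), and the call was lost with the mean of both, with probe sets open to several transcripts removed, and without CPEB3 replicate 2, CPEB3 replicate 3, NC replicate 2 or NC replicate 3. MRPL10, to which MRPL12 binds, read 8.05, 7.95 and 7.81 in the arrays labelled CPEB3, against 8.16, 8.24 and 8.08 in the arrays labelled NC. All its arrays labelled CPEB3 were lower, but the difference of -0.23 (SE 0.08) had an adjusted p of 0.0634.

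The remaining members of this group did not pass. MRPL15 had the largest difference among them, reading 9.80, 9.45 and 9.44 in the arrays labelled CPEB3, against 9.19, 9.30 and 9.30 in the arrays labelled NC. CPEB3 replicate 1 stood well above the rest, and the difference of 0.30 (SE 0.10) had an adjusted p of 0.0507. MRPL3, the member with the brightest probe set, read 10.68, 10.67 and 10.60 in the arrays labelled CPEB3, against 10.58, 10.56 and 10.57 in the arrays labelled NC, a difference of 0.08 (adjusted p = 0.375). MRPL55, the dimmest member, had a difference of 0.17 (adjusted p = 0.157). For MRPL13, MRPL35, MRPL21, MRPL4, MRPL33, MRPL27, MRPL17, MRPL16, MRPL1, MRPL18, MRPL14, MRPL23, MRPL20, MRPL30, MRPL19 and MRPL47 the difference lay between 0.01 and 0.15. MRPL28 and MRPL2 were closest to no difference, at 0.01 (95% interval -0.12 to 0.14) and -0.01 (-0.17 to 0.15). MRPL32 and MRPL9 were at -0.02 and -0.03.

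Large-subunit proteins found only in mitochondria made up 20 members. Of these 8 rose (40%, against 10.9% of all genes) and 0 fell (against 12.5%), with a median of 0.09. No member of this group had an unadjusted p under 0.05 beyond the 8 called. MRPL41 read 9.07, 9.01 and 9.05 in the arrays labelled CPEB3, against 8.61, 8.71 and 8.78 in the arrays labelled NC. Its groups were well separated, by 0.34 (SE 0.06, adjusted p = 0.00447). MRPL43 read 8.39, 8.30 and 8.39 in the arrays labelled CPEB3, against 8.04, 8.05 and 7.9995 in the arrays labelled NC. Both groups were tight, and the difference was 0.33 (SE 0.06, adjusted p = 0.00314), the smallest adjusted p of the family.

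MRPL46 and MRPL40 sit in the central protuberance, the knob of the large subunit that faces the small one. MRPL46 read 8.40, 8.22 and 8.30 in the arrays labelled CPEB3, against 7.94, 8.05 and 7.99 in the arrays labelled NC, a difference of 0.32 (SE 0.07, adjusted p = 0.00808). No array crossed over to the other group. MRPL40 rose by 0.24 (adjusted p = 0.0296), a call lost without CPEB3 replicate 1, CPEB3 replicate 3, NC replicate 1 or NC replicate 2. MRPL57 read 10.59, 10.61 and 10.63 in the arrays labelled CPEB3, against 10.21, 10.34 and 10.35 in the arrays labelled NC, with a difference of 0.31 (SE 0.06, adjusted p = 0.00636). NC replicate 1 was again the lowest of its group. MRPL37, MRPL51 and MRPL50 rose by 0.27, 0.23 and 0.23 (adjusted p = 0.0252, 0.0161 and 0.0212). MRPL51 lost its call without CPEB3 replicate 3, MRPL50 whichever array other than NC replicate 1 was left out, and MRPL37 without CPEB3 replicate 1 or 2 or NC replicate 2 or 3.

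Other members known from the same regions did not pass. MRPL38, also of the central protuberance, differed by -0.04 (95% interval -0.19 to 0.11), and MRPL45, which tethers the ribosome to the inner membrane, by -0.04 (-0.18 to 0.09). MRPS30 and MRPS18A carry small-subunit names but sit in the large subunit. MRPS30 read 9.20, 9.12 and 9.12 in the arrays labelled CPEB3, against 9.12, 9.04 and 9.11 in the arrays labelled NC, with a difference of 0.06 (adjusted p = 0.528). MRPS18A read 7.61, 7.70 and 7.81 in the arrays labelled CPEB3, against 7.84, 7.92 and 7.78 in the arrays labelled NC, a difference of -0.14 (adjusted p = 0.203). Both overlapped between groups. MRPL58, a peptidyl-tRNA hydrolase that frees stalled ribosomes, and MRPL49 each differed by 0.12. MRPL39, MRPL42, MRPL52 and MRPL48 were between 0.04 and 0.07, and MRPL54 and MRPL44 were at -0.06 and -0.07.

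Small-subunit proteins with a bacterial counterpart made up 15 members, and 8 had an unadjusted p under 0.05. Of the 15, 6 rose (40%, against 10.9% of all genes) and 0 fell (against 12.5%), with a median of 0.15. MRPS16 read 7.73, 7.59 and 7.70 in the arrays labelled CPEB3, against 7.26, 7.35 and 7.42 in the arrays labelled NC. The groups were apart by 0.33 (SE 0.07, adjusted p = 0.00773). MRPS17 read 9.45 in each array labelled CPEB3, against 9.05, 9.16 and 9.16 in the arrays labelled NC, a difference of 0.32 (SE 0.06, adjusted p = 0.00368). Its arrays labelled CPEB3 were nearly identical, and the spread lay among the NC arrays.

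MRPS12, part of the decoding centre where codon and anticodon pair, read 9.13, 9.05 and 9.08 in the arrays labelled CPEB3, against 8.68, 8.87 and 8.86 in the arrays labelled NC, a difference of 0.28 (SE 0.07, adjusted p = 0.0169). MRPS7, whose bacterial counterpart starts the assembly of the head of the small subunit, read 8.94, 8.93 and 8.97 in the arrays labelled CPEB3, against 8.58, 8.71 and 8.71 in the arrays labelled NC, a difference of 0.28 (SE 0.06, adjusted p = 0.00997). In both genes NC replicate 1 was lowest and the groups did not overlap. MRPS28 and MRPS6 rose by 0.24 and 0.22 (adjusted p = 0.0144 and 0.0276). MRPS28 lost its call without CPEB3 replicate 3, MRPS12 without CPEB3 replicate 1, and MRPS6 whichever array other than NC replicate 3 was left out and with the most variable probe set. MRPS21 and MRPS11 had differences of 0.17 and 0.15 with adjusted p = 0.0896 and 0.11. MRPS15, MRPS9 and MRPS18C were between 0.06 and 0.10. MRPS10 and MRPS2 were closest to no difference, at -0.01 (95% interval -0.13 to 0.11) and 0.02 (-0.13 to 0.17), and MRPS14 and MRPS5 were at -0.05 and -0.12.

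Small-subunit proteins found only in mitochondria made up 10 members, and 6 had an unadjusted p under 0.05. Of the 10, 5 rose (50%, against 10.9% of all genes) and 0 fell (against 12.5%), with a median of 0.19. MRPS23 read 9.78, 9.73 and 9.75 in the arrays labelled CPEB3, against 9.41, 9.49 and 9.47 in the arrays labelled NC. The groups were tight and apart by 0.30 (SE 0.06, adjusted p = 0.00468). MRPS33 read 9.40, 9.28 and 9.40 in the arrays labelled CPEB3, against 8.99, 9.09 and 9.10 in the arrays labelled NC, a difference of 0.30 (SE 0.06, adjusted p = 0.00967). It too showed no overlap. MRPS22, MRPS34 and MRPS26 rose by 0.25, 0.21 and 0.20 (adjusted p = 0.0144, 0.0295 and 0.0434). MRPS26 lost its call whichever array was left out, with the mean of its probe sets, with the most variable probe set and with median centring. MRPS34 lost it whichever array other than NC replicate 3 was left out and with the most variable probe set, and MRPS22 without CPEB3 replicate 3. MRPS27 was just short of the threshold, with a difference of 0.18 and an adjusted p of 0.056, although its groups did not overlap. MRPS35 was at 0.11, MRPS25 at 0.03 (95% interval -0.10 to 0.16), MRPS18B at -0.07 (-0.23 to 0.08) and MRPS31 at -0.10. By subunit, 11 of 25 small-subunit members rose (44%) and 0 fell (median 0.17). Of 50 large-subunit members 12 rose (24%) and 2 fell (4%, median 0.11), with 10.9% of all genes higher and 12.5% lower. The difference between the subunits was not tested.

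**Figure D3:**
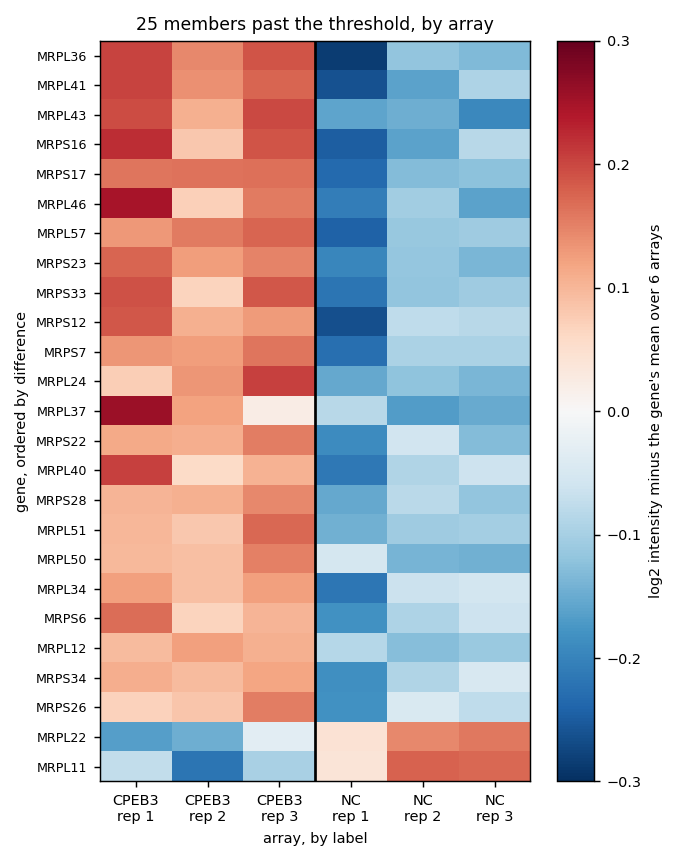
Log2 intensity of the 25 members past the threshold (rows, ordered by difference) in each array (columns, arrays labelled CPEB3 left of the line and arrays labelled NC right of it), as colour for the value minus the gene's mean over all 6 arrays. The 23 genes that rose are red in all arrays labelled CPEB3 and blue in all arrays labelled NC, with NC replicate 1 often the darkest blue, and MRPL22 and MRPL11 run the other way.

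The arrays did not contribute evenly. Against the mean of the NC arrays, the median member lay at 0.13, 0.09 and 0.13 in the arrays labelled CPEB3, and at -0.06, 0.03 and 0.02 in the arrays labelled NC. The low value belonged to NC replicate 1, in which 17 of the 75 members exceeded the NC mean, against 62 and 54 in the other NC arrays and 62, 54 and 59 in the arrays labelled CPEB3. Without NC replicate 1 the family's median was 0.09, 18 members rose and 2 fell. The count of rises fell furthest without CPEB3 replicate 3 (14 members), and it was 15 without CPEB3 replicate 1 and 15 without NC replicate 2. Rises of 11 members kept their call whichever single array was left out: MRPL24, MRPL36, MRPL41, MRPL43, MRPL46, MRPL57, MRPS7, MRPS16, MRPS17, MRPS23 and MRPS33. The other 12 rises lost it without at least 1 array.

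Other probe sets of the same genes gave a reading that the choice of the brightest one had not used, though from the same RNA. Of the 75 members, 37 had more than 1 probe set, and these had 65 further ones. When every probe set was tested on its own, 18 of the 65 rose and 0 fell by limma (2 were lower at an unadjusted p under 0.05), with 7.2% of all 41091 probe sets higher and 9.06% lower. Their median difference was 0.15, against 0.02 over all probe sets. Every probe set of a gene was positive for 21 of the 37 members and negative for 4 (MRPL44, MRPL9, MRPS31 and MRPS5), and 12 were mixed. No member was called in both directions. In this fit the brightest probe sets of MRPL22, MRPL34, MRPL40, MRPS6, MRPS26 and MRPS34 did not pass, with adjusted p of 0.0532 to 0.0792 (limma).

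Several members read higher at every probe set they had. All 4 probe sets of MRPS22, each of a kind that can match several transcripts, rose by 0.25 to 0.31, and 4 of the 5 of MRPL41 rose, with all 5 between 0.17 and 0.34. The second probe sets of MRPS16 and MRPS23 gave larger differences than the brightest ones, 0.53 and 0.45. MRPL43 was mixed: its dimmest probe set read 5.57, 5.65 and 5.65 in the arrays labelled CPEB3, against 5.73, 5.79 and 5.76 in the arrays labelled NC. All arrays labelled CPEB3 were lower there, with a difference of -0.14 that did not pass (adjusted p = 0.195). This is its one probe set outside the kind that can match several transcripts, and 45 of the 75 members were represented by a probe set of that kind. Leaving those probe sets out kept 44 members, of which 12 rose and 1 fell, with 9.03% of the remaining 17098 genes higher and 10% lower.

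For 6 members a dimmer probe set was called and the brightest was not: MRPL30, MRPL35, MRPL42, MRPL55, MRPS18C and MRPS30. MRPL30, which has 5 probe sets, differed by 0.05 at the brightest and rose by 0.26, 0.35 and 0.52 at the next 3. At the last of these it read 6.06, 6.11 and 6.0025 in the arrays labelled CPEB3, against 5.51, 5.58 and 5.52 in the arrays labelled NC, with no overlap. MRPL42 differed by 0.05 at its brightest probe set and rose by 0.52 at its dimmest, where it read 5.52, 5.71 and 5.79 in the arrays labelled CPEB3, against 5.18, 5.17 and 5.11 in the arrays labelled NC. MRPS30 rose by 0.43 at its second probe set. Which transcripts these probe sets match was not examined. MRPS5 was lower at all of its 4 probe sets, by differences of -0.14 to -0.04, and none passed.

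**Figure D4:**
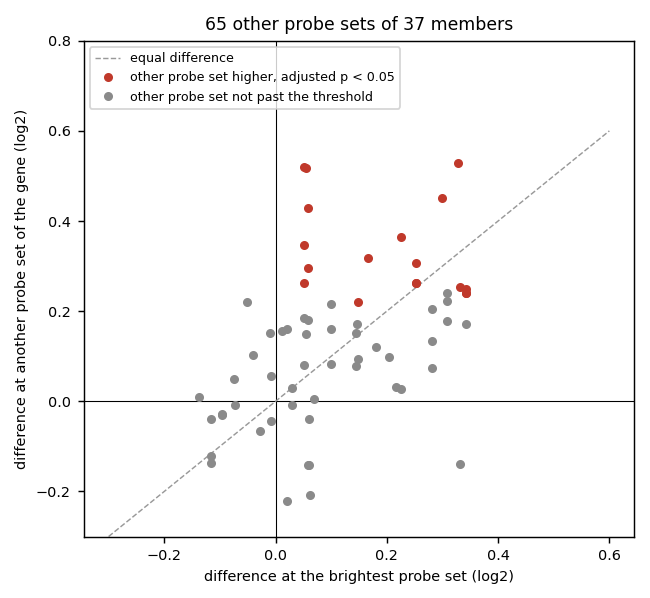
Difference in log2 intensity (arrays labelled CPEB3 minus arrays labelled NC) at each of the 65 other probe sets of 37 members (y axis) against the difference at the gene's brightest probe set (x axis), with the line of equal difference dashed. The 18 red probe sets rose and lie between 0.22 and 0.53; none fell, and the grey ones did not pass.

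Among genes that work with the mitoribosome some rose and some fell. Mitoribosomal subunits with other symbols were split: CHCHD1 (0.28, adjusted p = 0.0095) and GADD45GIP1 (0.21, adjusted p = 0.0417) rose and DAP3 fell (-0.23, adjusted p = 0.0189), while PTCD3, at -0.01, did not pass. Of 23 assembly factors 1 rose (MPV17L2, 0.31, adjusted p = 0.0064) and 1 fell (METTL17, -0.22, adjusted p = 0.0215), with a median of 0.05. Of 15 translation factors 3 rose and 2 fell, with a median of 0.09. GFM1, the elongation factor that moves the ribosome along the mRNA, rose by 0.29 (adjusted p = 0.0148), and MTFMT, which formylates the initiator methionine, by 0.28 (adjusted p = 0.0125). TUFM, which delivers aminoacyl-tRNA, rose by 0.28 (adjusted p = 0.0076). MTRFR, a rescue factor for stalled ribosomes, had a difference of -0.36 (adjusted p = 0.0074) and GUF1, a GTPase related to bacterial LepA, one of -0.28 (adjusted p = 0.0184). At the more variable probe set of each, METTL17 was at 0.09 and MTRFR at 0.08, so their falls rest on 1 probe set. Over these 42 genes together 6 rose and 4 fell (14.3% and 9.52%, near the 10.9% and 12.5% of all genes), with a median of 0.06.

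Genes upstream of the mitoribosome's RNA and genes for regulators showed rises and falls. Of the nucleoid and transcription genes 22.2% rose and 22.2% fell, and of the regulators 11.1% rose and 33.3% fell. Of all genes 10.9% rose and 12.5% fell. Of 9 genes for the mtDNA nucleoid and its transcription, TEFM (an elongation factor, 0.28, adjusted p = 0.0111) and TFB2M (an initiation factor, 0.23, adjusted p = 0.0181) rose. TFAM, which packages mtDNA (-0.26, adjusted p = 0.0169), and POLG2, a subunit of the mtDNA polymerase (-0.19, adjusted p = 0.0332), fell. Of 9 regulators of nuclear genes for mitochondrial proteins, ESRRA rose (0.27, adjusted p = 0.0131). MYC read 9.23, 9.24 and 9.10 in the arrays labelled CPEB3, against 9.72, 9.78 and 9.77 in the arrays labelled NC, lower in every array by a difference of -0.57. GABPB1, a subunit of GABP, read 6.52, 6.40 and 6.50 in the arrays labelled CPEB3, against 6.98, 7.05 and 6.85 in the arrays labelled NC, with a difference of -0.49 and no overlap. YY1 fell as well (-0.27, adjusted p = 0.0231), but its difference was 0.12 with probe sets that can match several transcripts left out. Regulators that did not pass included NRF1 (-0.05, adjusted p = 0.671) and GABPA (-0.23, adjusted p = 0.166), both with overlapping groups.

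**Figure D5:**
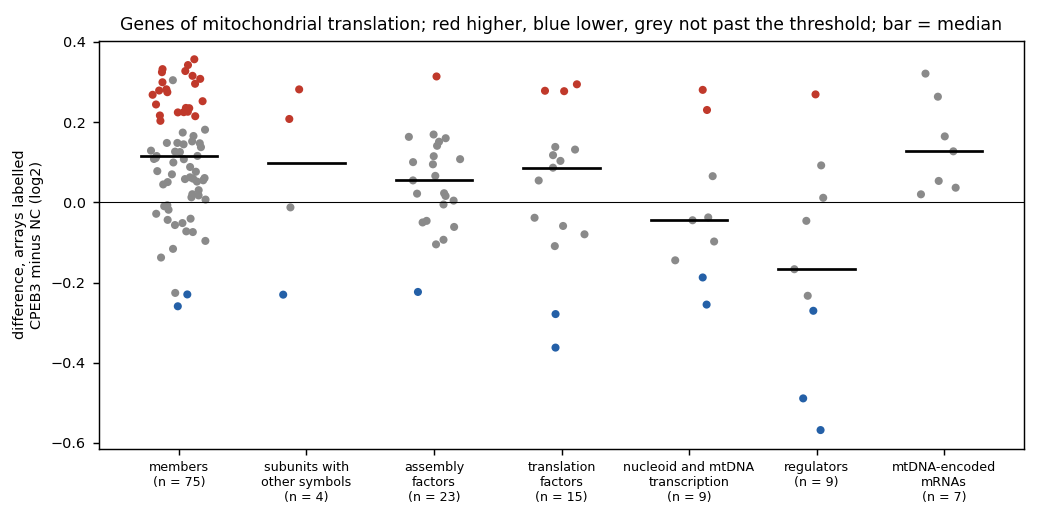
Difference in log2 intensity (y axis, arrays labelled CPEB3 minus arrays labelled NC, 3 arrays each) for the members and for 6 lists of related genes (x axis), 1 point per gene, with a bar at each median. Medians are 0.12 for the 75 members, 0.10 for the subunits with other symbols, 0.05 for the assembly factors, 0.09 for the translation factors, -0.04 for the nucleoid and mtDNA transcription genes, -0.17 for the regulators and 0.13 for the mRNAs encoded by mtDNA.

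The mRNAs that the mitoribosome translates had probe sets for 7 genes. By limma 0 passed at the adjusted threshold, while 10.9% of all genes rose and 12.5% fell. An unadjusted p under 0.05 was reached by 2, all 7 differences were positive and their median was 0.13. ATP6 read 12.77, 12.66 and 12.51 in the arrays labelled CPEB3, against 12.52, 12.28 and 12.35 in the arrays labelled NC, overlapping narrowly. A second, dimmer ATP6 probe set rose by 0.63 (adjusted p = 0.00739 over all probe sets), a gene singled out after its values were seen. COX3 had the largest difference, 0.32, with 8.28, 8.71 and 8.04 in the arrays labelled CPEB3, against 8.47, 7.83 and 7.76 in the arrays labelled NC, and its arrays were interleaved. For the proteins of the cytosolic ribosome, the cell's main one, 0 of 52 genes passed by limma, while 10.9% of all genes rose and 12.5% fell. An unadjusted p under 0.05 was reached by 3 of the 52, and their median difference was 0.01. The list is bright, with array means of 11.81 to 11.84 on the log2 scale, and its brightest gene, at 13.01, is the brightest of all genes. Whether differences are compressed at such levels was not tested. That list moved with the scaling, as all genes did: with spike-in centring 16 of the 52 rose, and 39.3% of all genes rose.

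Cell type markers moved in part with the same labels, and their part in the results was not tested. Rises made up 20% of the colon epithelium markers, 12.5% of the leukocyte markers and 10% of the fibroblast and endothelium markers. Of all genes 10.9% rose, so the leukocyte and the fibroblast and endothelium shares were near that of all genes. Of 10 colon epithelium markers 2 rose (KRT20 by 0.87 and KRT18 by 0.26) and 0 fell. Their summed intensity was 8565 to 8851 in the arrays labelled CPEB3 and 7767 to 7907 in the arrays labelled NC. Only LGALS4 among them was below the median probe set. Of 8 leukocyte markers 1 rose (ITGAM), with sums of 140 to 153 in the arrays labelled CPEB3 and 126 to 136 in the arrays labelled NC. Of 10 fibroblast and endothelium markers 1 rose (DCN), with sums of 185 to 197 in the arrays labelled CPEB3 and 175 to 181 in the arrays labelled NC. Below the median probe set lay 4 of the 8 leukocyte markers and 6 of the 10 fibroblast and endothelium markers.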

How the data were processed

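Expression was measured with 1-colour Affymetrix HG-U133 Plus 2.0 arrays in 6 samples. The deposited values are linear intensity per probe set, normalized by the authors with RMA per the submitters' processing notes (version not given in the sources used here). RMA equalises the distributions of arrays, which hides any change in a cell's total RNA. The number of arrays limits precision. Values ran from 1.39 to 8436, so log2 was taken without a pseudocount. Of 54675 probe sets 62 were controls, 41091 had 1 symbol, 1801 several and 11721 none here. RefSeq held 19735 of the 19775 genes by Entrez identifier, and 0 were renamed.

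Groups and replicate numbers came from titles. limma 3.58.1 in R 4.3.3 (lmFit, eBayes, group as the only term) gave 4 residual and 5.06 prior degrees of freedom. Probe sets not used for a gene were tested in a separate fit of every probe set but the controls. The steps were checked on simulated data, where 7 of 50 genes changed by 0.25 and 32 of 50 changed by 0.5 on the log2 scale were called. Calls there numbered 144 in all, far fewer than in the real arrays, so these shares need not hold for them. A member that did not pass may still differ by an amount of this size. Members and lists were chosen with earlier results of these data known. Named with values were the 12 largest rises, the falls, the members with the 2 largest and 2 smallest differences per role, the brightest and dimmest, MRPS30 and MRPS18A, and up to 4 called genes per list. TUFM, MRPL10, MRPS27 and the other genes given values were named after these were seen. Alternatives were other probe set choices, a filter on dim genes, median, quantile and spike-in scaling, an intensity trend, robust variances, array weights, a replicate block, a threshold of 0.01 and leaving out each array. Figures were drawn with matplotlib 3.10.9.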

Additional observations from a re-analysis of the deposited data

How the results depend on the processing

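With 3 arrays a group and differences under 0.4 on the log2 scale, which members pass changed between the alternatives. The family's median was positive under every alternative run, array weights (0.099) included. It lay between 0.09 and 0.15, except 0.29 with spike-in centring (all genes 0.20). The median of all genes was positive in each as well. All alternatives reuse the same arrays and labels, so they are no independent evidence on the direction. The 23 rises became 12 (of 44 members) without probe sets open to several transcripts, 54 with spike-in centring, 11 at a threshold of 0.01 and 14 to 19 when 1 array was left out. The 2 falls became 1 with the most variable probe set, 1 without probe sets open to several transcripts, 1 with quantile normalization, 0 with spike-in centring, 0 at 0.01 and 0 to 2 when 1 array was left out. Over all genes rises were 7766 with spike-in centring, 1083 at 0.01 and 1512 to 1942 without 1 array, and falls were 1038, 1520 and 1861 to 2412. Of the 42 assembly factors, translation factors and other subunits, 10 rose with quantile normalization, 23 with spike-in centring, 11 with an intensity trend, 3 at 0.01 and 4 to 5 without 1 array. Their falls were 1 with the mean of probe sets, 2 with the most variable one, 0 of 35 without probe sets open to several transcripts, 0 with spike-in centring, 1 at 0.01 and 2 to 4 without 1 array. Of the 11 members that kept their call whichever array was left out, 10 also kept it under the other alternatives, apart from the removal of probe sets open to several transcripts, which left some untested. MRPL43 lost it with the mean of probe sets. The causes were not tested.

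Replicate numbers are shared by the groups but did not pair the samples: deviations of arrays with the same number correlated with r = 0.00027, -0.017 and 0.12 across genes. With the replicate block 18 members rose and 2 fell, with 9.84% of all genes higher and 11.7% lower, and MRPL34, MRPL40, MRPS6, MRPS26 and MRPS34 lost their calls.

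Single differences that changed sign were mostly those near 0. With the mean of probe sets, MRPL2 was at 0.071, MRPL38 at 0.031, MRPS10 at 0.0012 and CPEB3 at -0.50. With the most variable probe set, MRPL2 was at 0.15, MRPL38 at 0.10, MRPS10 at 0.056, MRPS25 at -0.0090, METTL17 at 0.087, MTRFR at 0.081 and CPEB3 at -1.44. Without probe sets open to several transcripts, MRPL43 was at -0.14, METTL17 at 0.087, MTRFR at 0.081 and YY1 at 0.12. Quantile normalization gave MRPL2 0.043, MRPL38 0.0027 and MRPS10 0.015. Spike-in centring gave MRPL2 0.17, MRPL38 0.14, MRPL45 0.14, MRPS10 0.17, MRPS18B 0.11 and MRPS18A 0.042. Median centring gave MRPL28 -0.0082, and array weights gave MRPS2 -0.0023. Leaving out 1 array gave -0.025 to 0.024 for MRPL28, -0.079 to 0.031 for MRPL2, -0.073 to 0.0031 for MRPL38, -0.015 to 0.00012 for MRPS10 and -0.031 to 0.061 for MRPS2.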

Other observations

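Both coding genes left out for sharing their probe set with another gene read higher where CPEB3 overexpression was labelled. The probe set of MRPS24, shared with a readthrough transcript, read 10.70, 10.64 and 10.74 in the arrays labelled CPEB3, against 10.25, 10.42 and 10.48 in the arrays labelled NC, with a difference of 0.31 (adjusted p = 0.0241 over all probe sets, limma). The probe set of MRPL53, shared with CCDC142, differed by 0.24 (adjusted p = 0.054). MRPL20-AS1, antisense to MRPL20, differed by 0.03 (adjusted p = 0.846), and MRPL20 itself by 0.06.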
